A study of Mus musculus with 6 samples.

Results

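The Klhl and Kbtbd genes encode proteins that join a BTB domain to a row of kelch repeats. In most of those studied, the BTB domain binds Cullin-3, a ubiquitin ligase scaffold, and the kelch repeats hold the protein that is to be marked for degradation. A few members, among them Klhl40 and Klhl41, are instead known for keeping their partners stable. Several act in striated muscle: Klhl31 turns over the actin cross-linker filamin C in mouse skeletal muscle, and variants of human KLHL40, KLHL41 and KBTBD13 cause nemaline myopathy.

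Members were the non-control probes whose gene name on the array begins with Klhl or Kbtbd and a digit. They were 43 genes with 57 probes, of 35440 gene names and 55681 probes in all. Each gene was read from its brightest probe, and both probes of Klhl31 are given. Klhl40 and Klhl41 stand on the array under their older names Kbtbd5 and Kbtbd10. Of the 43 genes, 40 had a probe that stood well above background on 3 or more of the 6 arrays, and these were tested. The 3 others, Kbtbd8, Klhl1 and Klhl14, were too dim. Klhdc5, now called Klhl42, is no member by its name on the array; its difference between the genotypes (log2, H19 knockout minus wild type) was -0.05.

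The groups were cardiomyocytes of adult mice lacking H19, an imprinted long non-coding RNA, and of their wild-type littermates, with 3 arrays each. All mice had undergone transverse aortic constriction (TAC), which narrows the aorta and loads the left ventricle, and cells were isolated by retrograde perfusion 6 weeks later. The knockout was not restricted to one cell type by its label; the deleted part of H19, the strain and how many mice stand behind each array are not stated in the labels. The p-values therefore cover the spread between these samples, which may be partly technical, and unoperated hearts were not analysed here.

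Values are log2 signals relative to the array's 75th percentile, so that 0 marks a probe at that percentile, and differences are knockout minus wild type. H19 was not well above background on any knockout array (-5.67, -6.41 and -5.96), against 1.69, 0.75 and 0.85 in wild type. That is at least 32.4-fold more in wild type. The log2 difference as read was -7.11 (adjusted p = 0.00185, limma). These values are of the brightest of 7 H19 probes, and the next brightest gave a smaller difference of -1.82. The share of spots well above background was 48.8% to 58.6%. Slide 1 carried replicate 1 of both genotypes and slide 2 the other 4 arrays. All 10 ventricular cardiomyocyte markers were well above background on all 6 arrays, with a summed log2 level of 11.34 to 11.53 in knockout and 11.56 to 11.61 in wild type.

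Klhl31 is shown by its probes because they gave different answers. Both are 60 bases long, lie on chromosome 9 (mm9, plus strand), carry the same transcript accession and are 3266 bases apart both in the genome and in the transcript. The brighter lies at chr9:77503483-77503542, from base 1810 of the transcript, and the second at chr9:77506749-77506808, from base 5076. The first is printed whole and the second by its first 30 bases, with stop triplets in any of the 3 forward frames in capitals.
Klhl31, brighter probe: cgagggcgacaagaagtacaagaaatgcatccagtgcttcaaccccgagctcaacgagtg
Klhl31, second probe: gcactgccatTAAggacaaaaatgcaagaa
The brighter probe held no stop triplet and 53.3% G and C, and the whole second probe held 1 and 41.7%. Neither shared a run of more than 14 bases with any other probe of the array on either strand. Exon and UTR annotation of mm9 was not used here.

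Klhl31 was the member that passed as lower in H19 knockout cardiomyocytes, and it did so at its brighter probe only. That probe was the brighter through the wild-type arrays alone. Its signal less that of the second probe was 1.95, 2.76 and 1.94 in wild type, but -0.15, -0.19 and -0.57 in knockout. The choice of probe was thus not independent of genotype. Chosen on the knockout arrays, the second probe would have stood for the gene. The brighter probe read 1.80, 1.42 and 1.65 in knockout, against 3.61, 4.32 and 4.03 in wild type. All 3 knockout arrays lay below all 3 wild-type arrays, by more than the spread within either genotype. The log2 difference was -2.36 (SE 0.22, 95% CI -2.89 to -1.84, adjusted p = 0.0433, limma), so the signal was 5.15-fold higher in wild type. It was -1.81 on slide 1 and -2.64 on slide 2. Of all 21888 genes tested, 8 passed, which is 0.0365%, and 6 of them were lower in knockout (0.0274%). The call was close to its threshold: of 19 other settings, leaving aside 2 fits with array weights, 7 kept the call and 12 lost it. Leaving out any array but wild-type replicate 1 lost it. All 19 kept the difference negative. All but the setting with averaged probes read this same probe, so they do not bear on the second probe.

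The second Klhl31 probe did not show this. It read 1.95, 1.61 and 2.22 in knockout, against 1.66, 1.56 and 2.09 in wild type, and the genotypes overlapped. Its log2 difference was 0.15 (SE 0.23, 95% CI -0.38 to 0.69, adjusted p = 1, limma over all 29990 probes). In that fit 14 probes passed (0.0467%), among them the brighter Klhl31 probe (adjusted p = 0.0307, limma). The second probe's interval leaves out the size seen at the brighter probe. Under all 19 of its own alternative settings the second probe was higher in knockout, from 0.0080 to 0.58. With the gene's probes averaged, the difference was -1.10 with an adjusted p of 0.442 (limma).

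**Figure D1:**
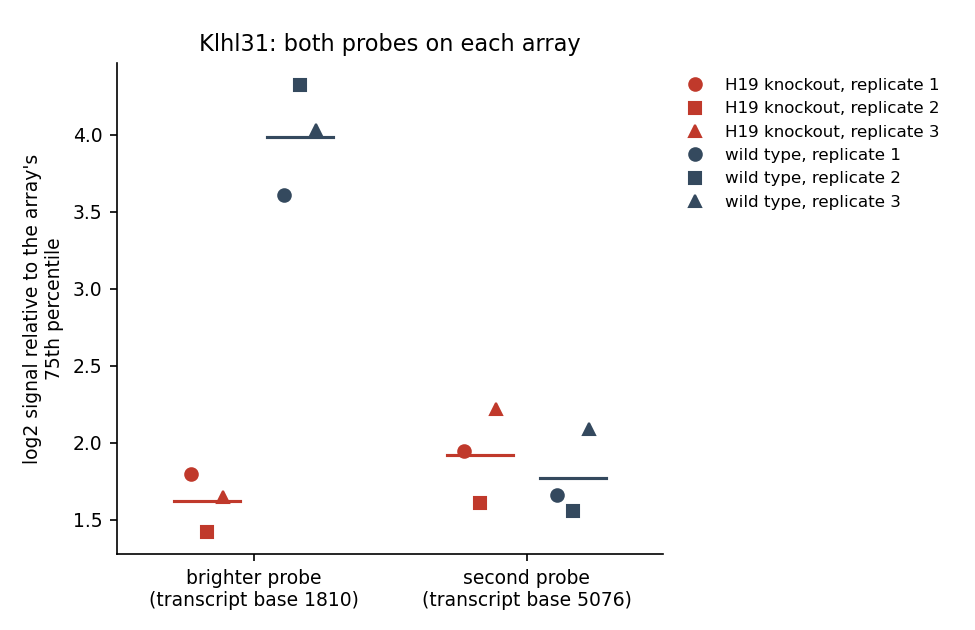
Log2 signal of both Klhl31 probes relative to each array's 75th percentile (y axis), for the 3 H19 knockout (red) and 3 wild-type (grey-blue) arrays; symbols mark the replicate and bars the mean. At the brighter probe the knockout arrays lie between 1.42 and 1.80 and the wild-type arrays between 3.61 and 4.32, while at the second probe the genotypes overlap; heights of different probes cannot be compared.

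Whether probes of a gene disagreed was then fitted over all 5708 genes with at least 2 tested probes, as the knockout minus wild-type difference of the brightest probe less that of the next. This fit was added after the Klhl31 probes had been seen to differ. The difference of differences was -2.52 for Klhl31 (SE 0.26, 95% CI -3.16 to -1.88, adjusted p = 0.104, limma). It did not pass, although in size it ranked 9 of 5708. In the same fit 3 genes passed (0.0526%), none of them a member. H19 was 1 of them, with -7.11 at its brightest probe and -1.82 at the next (adjusted p = 0.0161, limma). The 6 other members with such a pair had sizes up to 0.99, with a median of 0.12 beside 0.12 over all such genes. The 0.99 belonged to Kbtbd11, whose brightest probe gave 0.25 and the next -0.74 (adjusted p = 0.8, limma). That next probe was dim, with means of -3.27 in knockout and -2.53 in wild type.

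**Figure D2:**
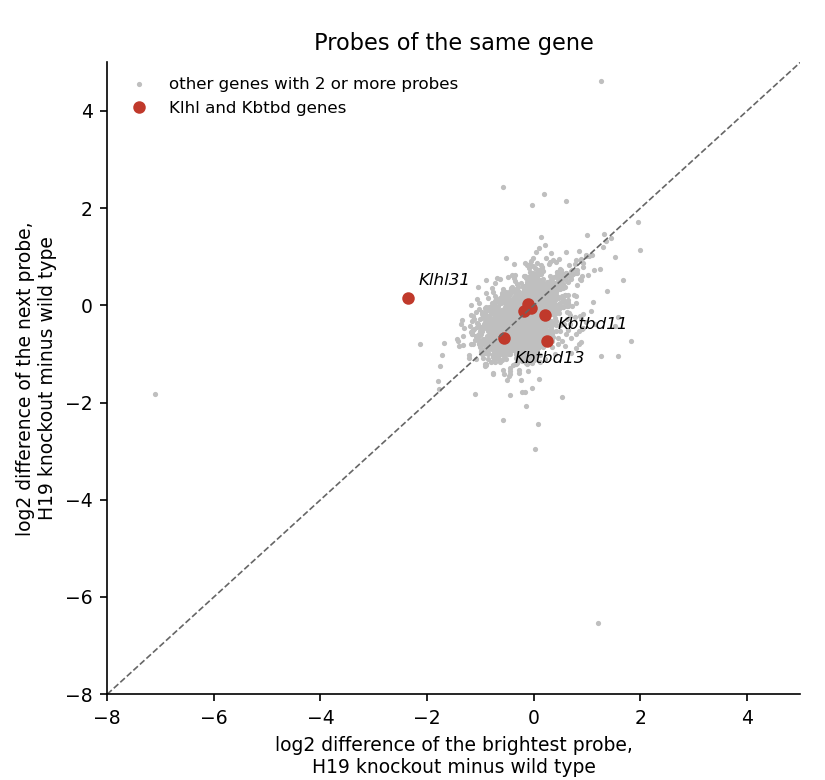
Log2 difference, knockout minus wild type, of the brightest probe (x axis) and the next probe (y axis) of each of 5708 genes with at least 2 tested probes; red points are the 7 Klhl and Kbtbd genes among them, and the dashed line marks equal differences. Klhl31 lies at -2.36 and 0.15, away from the line.

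The other members of striated muscle did not pass the test. Klhl40, which stabilises nebulin and leiomodin 3 in mouse skeletal muscle, read 2.26, 1.90 and 2.02 in knockout, against 1.51, 2.06 and 2.40 in wild type. Its log2 difference was 0.07 (SE 0.25, 95% CI -0.53 to 0.66). Klhl41, which also stabilises nebulin, read 2.03, 1.52 and 1.92 in knockout, against 1.37, 1.70 and 1.86 in wild type, a difference of 0.18 (SE 0.21, 95% CI -0.31 to 0.67). For both genes the genotypes overlapped, and both intervals leave out a difference as large as that of the brighter Klhl31 probe.

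Klhl24 is known in humans from start-codon variants that cause skin fragility and cardiomyopathy. It read 3.91, 3.16 and 3.79 in knockout, against 3.03, 3.39 and 3.82 in wild type (difference 0.21, SE 0.28). Its second probe gave -0.19. Klhl30 read 4.09, 3.23 and 3.60 in knockout, against 3.18, 3.46 and 3.89 in wild type (difference 0.13, SE 0.28). In both genes the lowest and the highest arrays came from different genotypes. Klhl38 read 2.07, 0.92 and 2.02 in knockout, against 0.84, 2.26 and 2.12 in wild type (difference -0.07, SE 0.47). One array of each genotype was low in Klhl38, so its interval was wide, from -1.17 to 1.03. Klhl34 read 0.22, 0.40 and 0.53 in knockout, against -0.01, 1.34 and 0.41 in wild type (difference -0.20, SE 0.34), with wild-type replicate 2 alone above 1.

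Within each genotype, these genes shared a pattern over arrays. Of these 7 members, 6 (all but Klhl34) were lowest on replicate 2 among the knockout arrays and on replicate 1 among the wild-type arrays, as were 13 of all 40 members and 23.1% of all genes. Kbtbd13, a further gene of muscle that was not in this group, did not show it. The pattern was noticed in the data and was not tested. On the same arrays, the summed levels of fibroblast, erythroid, endothelial and smooth muscle markers were highest within their genotype. The summed level of the ventricular cardiomyocyte markers was lowest there, narrowly so in wild type (11.53, 11.34 and 11.53 in knockout, against 11.5574, 11.6078 and 11.5597 in wild type). Atrial and skeletal muscle markers followed neither order. The smooth muscle sum is mostly Acta2. As a mean over its genes, each taken relative to its own mean, wild-type replicate 2 (0.62) stood narrowly above replicate 1 (0.60). The summed log2 level of the 8 fibroblast markers was 7.64, 8.89 and 8.01 in knockout, against 8.16, 7.51 and 7.11 in wild type. That of the 2 tested erythroid markers was 0.90, 6.54 and 3.17 in knockout, against 6.00, 2.23 and 1.90 in wild type. Macrophage and lymphocyte markers did not follow this order: the summed level of the 7 macrophage markers was 4.93, 6.02 and 5.03 in knockout, against 5.58, 5.68 and 5.94 in wild type, and that of the 4 tested lymphocyte markers was highest on replicate 3 among the knockout arrays. The part of these cells in the muscle members' levels was not tested, and fewer cells of a type and less RNA per cell cannot be told apart in such samples.

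**Figure D3:**
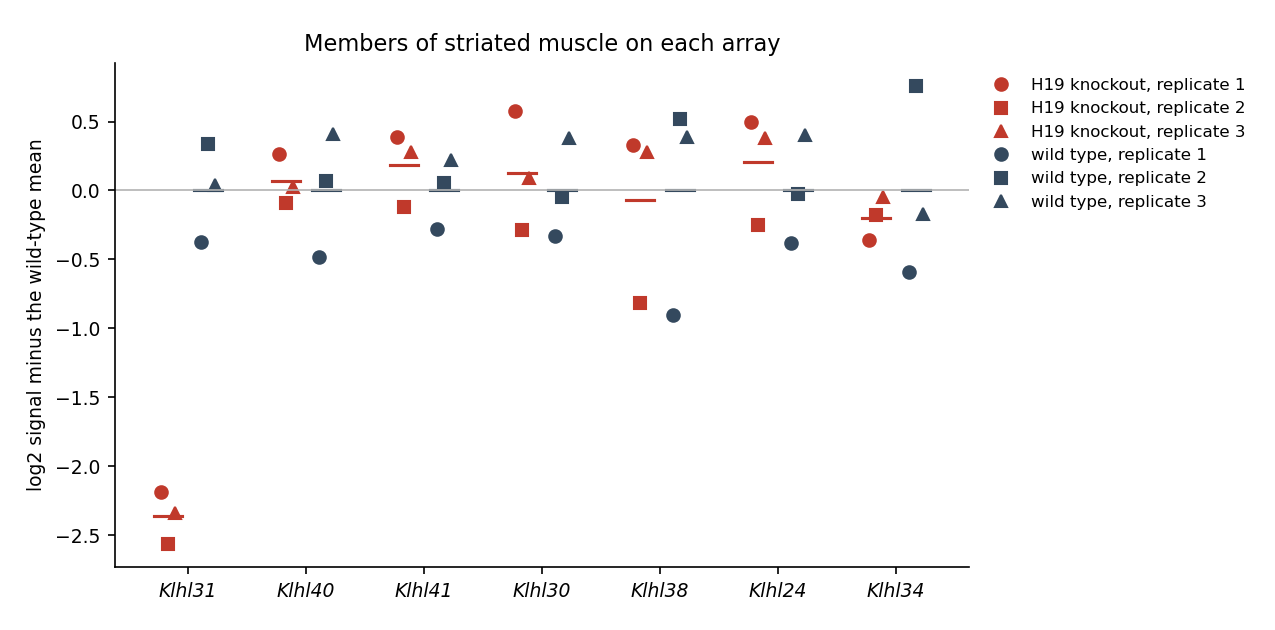
Log2 signal of the 7 members of striated muscle on each array, minus the gene's wild-type mean (y axis), for the 3 H19 knockout (red) and 3 wild-type (grey-blue) arrays; symbols mark the replicate and bars the mean. In Klhl31 all 3 knockout arrays lie below all 3 wild-type arrays, and in the other 6 genes the genotypes overlap.

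Of the 5 atrial markers, 3 had separate genotypes and were lower in knockout, as Klhl31 was, beside 8.37% of all genes. In limma 0 passed, and 3 had an unadjusted p under 0.05, beside 6.86% of all genes lower in knockout. Myl7, the atrial myosin regulatory light chain, read -1.92, -2.50 and -2.33 in knockout, against 1.60, 2.27 and -0.12 in wild type. Sln, the atrial calcium pump inhibitor sarcolipin, and Myl4 were also lower on all 3 knockout arrays, with differences of -4.82 and -2.78. None of these 3 passed (adjusted p = 0.462, 0.513 and 0.578, limma), and Nppa and Stard10, the remaining atrial markers, overlapped. The summed log2 level of the 5 markers was 8.27 to 8.51 in knockout and 8.47 to 8.63 in wild type. That sum is mostly Nppa, which read 8.25 to 8.48 in knockout and 8.20 to 8.47 in wild type. It therefore says little about Myl7, Myl4 and Sln. All 5 markers were well above background on all arrays. Their part in the Klhl31 result was not tested. Of the 8 fibroblast markers 8 were higher in knockout and 0 passed in limma. Dcn and Dpt, 2 of the 8, had an unadjusted p under 0.05, as did 1.06% of all genes in that direction. On slide 1, 7 of the 8 were lower in knockout, and on slide 2 all 8 were higher. Of the 7 macrophage markers 7 were lower in knockout, with a median of -0.56, and 0 passed (0 also at an unadjusted p under 0.05).

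Across the 40 tested members, 20 were higher and 20 lower in knockout, with a median log2 difference of 0.0026, beside -0.05 over all genes, of which 39.9% were higher. No member passed as higher in limma (0 also at an unadjusted p under 0.05), and Klhl31 was the 1 that passed as lower. In 2 members, Klhl31 and Klhl3, all knockout arrays lay below all wild-type arrays (8.37% of all genes), and in 0 they lay above (2.1%). The members' share of 2 in 40 was thus not above that of all genes. For 32 of the 40 members (80%) the 95% CI of the difference lay within 2-fold either way, as for 72.3% of all genes. When arrays were scaled to their median probe, which moved the median over all genes to 0.37, 36 members were higher and 4 lower in knockout.

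**Figure D4:**
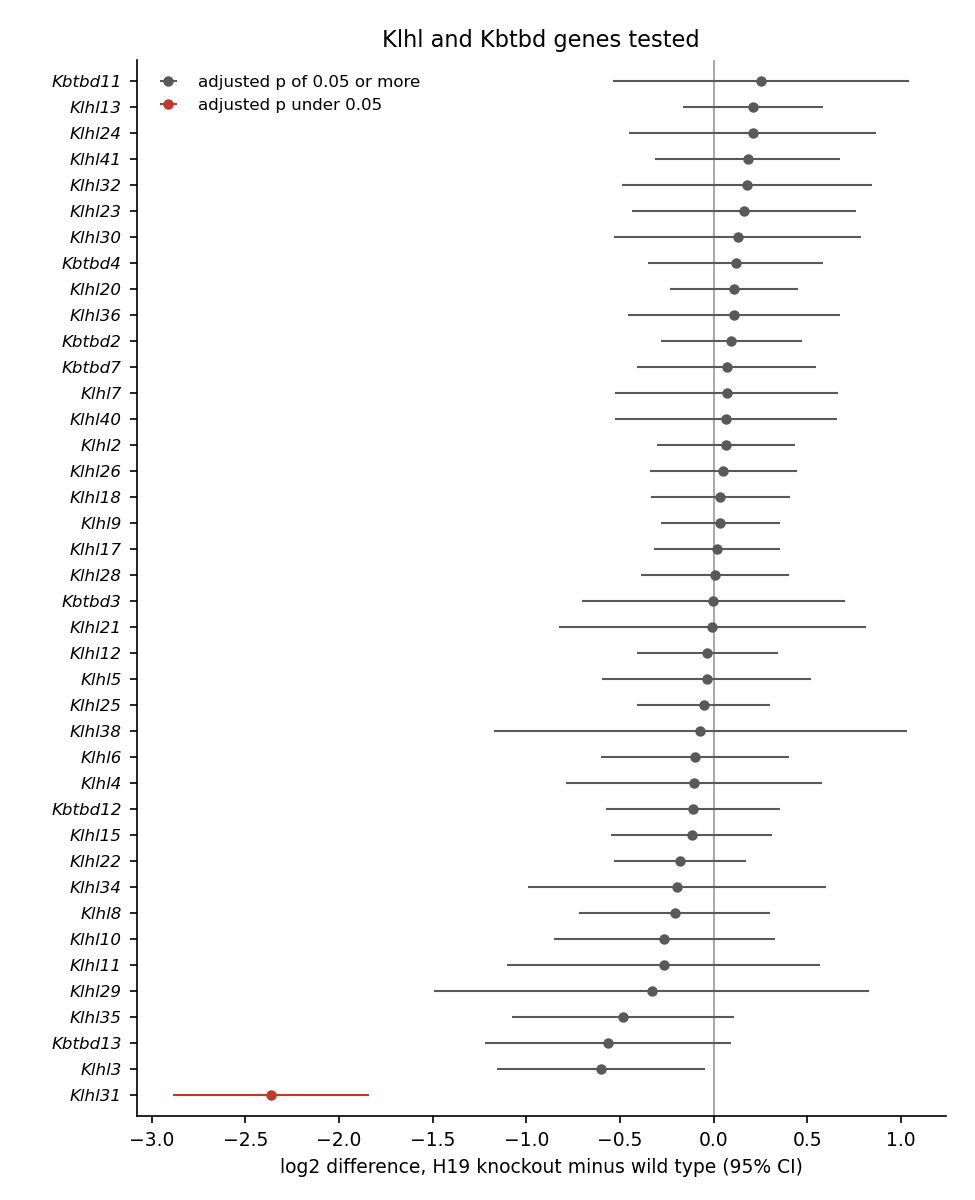
Log2 difference, H19 knockout minus wild type, with its 95% CI (x axis) for the 40 tested Klhl and Kbtbd genes, ordered by size; red marks an adjusted p under 0.05 (limma). Klhl31 lies at -2.36 and every other member between -0.60 and 0.25.

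Among the members that were lower, Klhl3 had the next smallest p. Klhl3 marks WNK kinases for degradation and is known for salt handling in the kidney. It read -3.11, -3.19 and -3.42 in knockout, against -2.25, -2.60 and -3.07 in wild type. The genotypes were separate by a narrow gap between the highest knockout and the lowest wild-type array, and the difference was -0.60 (SE 0.23, adjusted p = 0.626, limma). Kbtbd13, an adaptor that acts on the thin filament of muscle, read -2.002, -3.002 and -2.240 in knockout, against -1.798, -2.063 and -1.692 in wild type (difference -0.56). Klhl35 read -2.92, -2.89 and -3.03 in knockout, against -1.99, -2.45 and -2.95 in wild type (difference -0.48). In both, arrays of the genotypes overlapped, and neither passed. Klhl3, Kbtbd13 and Klhl35 were dim, and dim probes lay lower in knockout. The median over all genes was -0.02 with probes well above background on all 6 arrays and -0.17 without a filter on dim probes. The part of this shift in the differences of these genes was not tested. A second, dimmer Kbtbd13 probe was well above background on 1 knockout and 3 wild-type arrays. There all knockout arrays lay below all wild-type arrays, with a difference of -0.68 that did not pass (adjusted p = 0.586, limma). Klhl22, an adaptor for the mTORC1 regulator Depdc5, had a difference of -0.18, and Klhl10, required for sperm formation, one of -0.26.

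Among the members that were higher, none had an interval free of 0. Klhl13, which with Klhl9 directs Aurora B during cell division, read 4.72, 4.48 and 4.60 in knockout, against 4.54, 4.22 and 4.40 in wild type (difference 0.21, SE 0.16). The arrays of the genotypes overlapped in part. Kbtbd11 read -1.40, -0.18 and -1.13 in knockout, against -0.84, -1.27 and -1.37 in wild type (difference 0.25, SE 0.33), and knockout replicate 2 alone stood above the others. Klhl20, an adaptor for Dapk1 and Pml, had a difference of 0.11, and Klhl23 one of 0.16.

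The 5 brightest members were Klhl9, Kbtbd2, Klhl12, Klhl13 and Klhl22. Klhl9 was the steadiest of them, at 5.43, 5.47 and 5.37 in knockout, against 5.39, 5.33 and 5.44 in wild type (difference 0.04, 95% CI -0.28 to 0.35). Its 6 arrays lay within 0.14 of each other. Kbtbd2, which limits the p85 subunit Pik3r1 of phosphoinositide 3-kinase, had a difference of 0.10 (95% CI -0.28 to 0.47). Klhl12, which acts on Dishevelled proteins and on the vesicle coat protein Sec31a, had one of -0.03 (95% CI -0.41 to 0.34). The widest range within a genotype was that of Klhl29, at -4.07, -2.20 and -3.49 in knockout, against -2.52, -2.77 and -3.48 in wild type. Klhl1, a gene of the nervous system, stayed near background on all 6 arrays, and Kbtbd8 and Klhl14 were well above it on 1 wild-type array each.

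The partners of the family did not pass in either direction. Of the Cullin-3 genes, the other cullins, the other BTB-kelch genes and the sarcomere partners, 0 had an unadjusted p under 0.05 in limma. Of the 25 genes of the Cullin-3 ligase and its neddylation cycle, 16 were higher and 9 lower in knockout, with a median of 0.02, and 0 passed. Dcun1d3, a neddylation co-factor, had the smallest p, with a difference of -0.47 (adjusted p = 0.631, limma). It was dim, with means of -3.19 in knockout and -2.72 in wild type. All its knockout arrays lay below all wild-type arrays, as in 8.37% of all genes. Ube2f, Uba3 and Cand1 had differences of 0.19, 0.19 and 0.15, with overlapping arrays. Of the 7 other cullins 5 were higher, with a median of 0.06. Of the 7 BTB-kelch genes named otherwise, 6 were tested and 4 were higher, with a median of 0.06; Keap1, the adaptor for the antioxidant factor Nrf2, had a difference of -0.11.

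Of the 10 sarcomere partners of the muscle members, 7 were higher in knockout and 0 passed. Their median was 0.06, with 0.38 on slide 1 and -0.08 on slide 2. Every other list was also higher on slide 1 than on slide 2, as with 0.36 and -0.14 for the Cullin-3 genes. Over all genes the medians were -0.0001 and -0.12. Flnc, which encodes the Klhl31 substrate filamin C, had a difference of 0.11 (SE 0.18, adjusted p = 1, limma). Neb, nebulin, had -0.11, its heart relative Nebl 0.08, Lmod3 0.06 and Lmod2 0.15. Nrap, Lasp1, Des and Ttn had -0.01, 0.05, -0.02 and 0.04, and Xirp1, an actin-binding protein of the intercalated disc, had 0.28. These values are of RNA, whereas these adaptors act on protein.

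Substrates and partners of other members numbered 24, of which 23 were tested. Of these 10 were higher and 13 lower, with a median of -0.01, and 0 passed. In limma 1 was lower at an unadjusted p under 0.05, which is not above the 6.86% of all genes. That 1 was Wnk4, a kinase that Klhl3 marks for degradation, with a difference of -0.75 (SE 0.19, adjusted p = 0.614, limma). All its knockout arrays lay below all wild-type arrays, as in 8.37% of all genes. Acly, Sec31a and Pik3r1 had differences of 0.30, 0.24 and -0.17, with overlapping arrays.

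Genes around Klhl31 were compared because 4 of the 8 genes that passed lie on chromosome 9, all lower in knockout. Chromosome 9 held 1130 of the 21888 genes tested (5.16%). The other 3, Snap91, 9430037G07Rik and 9330159M07Rik, lie 9.16, 10.99 and 11.23 Mb from the brighter Klhl31 probe. Within 1 Mb of that probe 22 genes were tested, of which 11 were higher and 11 lower, with a median of 0.02. In limma 0 of them passed, and 3 higher and 1 lower had an unadjusted p under 0.05, as did 1.06% (higher) and 6.86% (lower) of all genes. Gclc, which starts glutathione synthesis and lies 138 kb away, had a difference of 0.14. Lrrc1, Elovl5 and Mlip had 0.15, 0.15 and -0.23, and Slc17a5, Mto1, Cilk1 and Cgas had -0.12, -0.16, -0.36 and -0.33. The genotypes did not overlap for 3 neighbours, all lower in knockout (8.37% of all genes): Fbxo9 with -0.35, 5730403I07Rik with -0.45 and an unnamed probe with -0.54. The glutathione transferases Gsta1 and Gsta2 had 0.99 and 1.21 and Gsta4 had -0.25; these genes are alike in sequence, and their probes may share signal. D9Wsu90e and Eef1a1 had 0.72 and 0.24, and Gm10639 and LOC625953 had 0.88 and -0.57. The largest difference, 1.42, was that of C920006O11Rik, which was well above background on 3 knockout arrays and 1 wild-type array. C920006O11Rik, Gsta2 and D9Wsu90e were the 3 higher genes at an unadjusted p under 0.05 in limma, and in all 3 the genotypes overlapped. Of the 5 members on chromosome 9, Klhl31 was the 1 that passed.

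**Figure D5:**
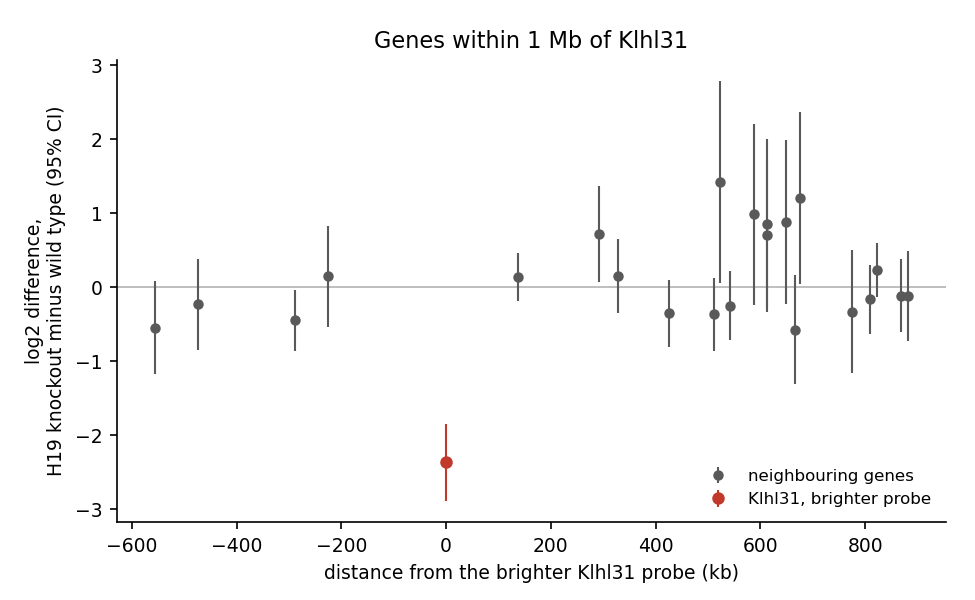
Log2 difference, H19 knockout minus wild type, with its 95% CI (y axis), of 22 genes within 1 Mb of the brighter Klhl31 probe against their distance from it in kb (x axis); red is that probe. The neighbours lie between -0.57 and 1.42, and Klhl31 at -2.36.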

How the data were processed

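The 6 samples were measured on 1-colour Agilent arrays. Per the file headers, the deposited scanner files hold the intensity of each spot, background-subtracted but not normalized between arrays, and were made with Agilent Feature Extraction 10.7.3.1; probe coordinates follow mm9. The authors' deposited value table holds quantile-normalized intensity on a linear scale with the same median (69.7) in every array. No source used here names its tool. The alternatives with quantile normalization and with the deposited values are therefore much alike and are not independent checks.

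Spots of a probe were averaged on the log2 scale and the array's 75th percentile over non-control probes was subtracted. Outlier spots were dropped. A probe was kept (29990 were) when it stood well above background on 3 or more arrays, and each gene was its brightest probe (21888 genes). Gene names were brought up to date with RefSeq's GRCm38.p6 table, by accession (26425 probes), symbol (3988) or synonym (826), and 24442 kept the file's name. Genotypes were compared with limma 3.58.1 (R 4.3.3), adjusted by Benjamini-Hochberg at 0.05 over all genes. An exact permutation test of 3 against 3 cannot go below 0.1. The procedure was tested on simulated data. The number of arrays limits the precision.

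Members, lists and tests were chosen with earlier results of these data known. Named members were the muscle ones, the 6 with the smallest p in each direction, those with separate genotypes, the 4 of widest range, the 5 brightest and those never above background; each list gave up to 4 by p. Alternatives covered background correction, normalization, filters, probe summaries, blocks, prior, array weights, thresholds and left-out arrays.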

Additional observations from a re-analysis of the deposited data

How the results depend on the processing

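Klhl31, read from its brighter probe or from its probes averaged, was lower in knockout under all 21 alternatives, from -2.64 to -1.10. Its call was lost in 12 and kept in 9, of which 2 were the fits with array weights (7 without them). Its difference and adjusted p (limma) were -2.39 and 0.0561 with quantile normalization, -2.39 and 0.0563 with the deposited values, -2.36 and 0.159 without a filter on dim probes, -1.10 and 0.442 with probes averaged, -2.36 and 0.123 with slide as a block, and -2.64 and 0.123 without slide 1. The second Klhl31 probe, read alone, was higher in knockout under all 19 of its alternatives, from 0.0080 to 0.58. Same-numbered samples did not deviate together (correlations -0.22, -0.05 and 0.04). With 3 arrays per genotype this check is weak, and replicate 1 of both genotypes shared slide 1, so it cannot exclude a pairing. With the replicate block the Klhl31 difference was -2.36 with an adjusted p of 0.177 (limma), and 1 gene and 0 members passed. Leaving out each array in turn gave -2.55 to -2.20 for Klhl31, 1 to 4 genes and 0 to 1 members passing, with the call kept only without wild-type replicate 1 (adjusted p = 0.0402). The number of genes passing was 8; it was 3 with quantile normalization and with the deposited values, 119 with scaling to the median probe, 1 with no filter, with the slide block and without slide 1, and 14 with every probe fitted. Members passing were 0 with quantile normalization, the deposited values, no filter, averaged probes, the slide block and without slide 1.

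Array quality weights, as planned, stopped before convergence and put 39.8% of all weight on wild-type replicate 2 and 48.8% on knockout replicate 3. They passed 5725 genes, 8 members and the second Klhl31 probe (0.58, adjusted p = 0.00669). The gene-by-gene weights, added after the data were seen, put 62.8% on knockout replicate 3 and passed 1260 genes and 2 members. Both rest mainly on 1 or 2 arrays and are not read as results. The percentile was first taken over spots and then, as the design states, over probes; over spots, 8 genes passed and Klhl31 was -2.38 (adjusted p = 0.0471).

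With scaling to the median probe the 6 lists' medians were 0.44 (Cullin-3), 0.48 (other cullins), 0.48 (other BTB-kelch genes), 0.48 (sarcomere partners), 0.41 (substrates) and 0.44 (neighbours), beside 0.37 over all genes. The members' median was 0.42 with that scaling and -0.12 without slide 1. Of 398 values of the other 19 named members, 33 changed sign, none past the threshold. With scaling to the median probe these were Klhl34 (0.22), Klhl38 (0.35), Klhl22 (0.24), Klhl10 (0.16), Klhl29 (0.091) and Klhl12 (0.39). Without slide 1 they were Klhl40 (-0.28), Klhl41 (-0.061), Klhl30 (-0.26), Klhl24 (-0.12), Klhl20 (-0.00011) and Klhl29 (0.28). Klhl29 was 0.043 with quantile normalization and 0.047 with the deposited values, and Kbtbd11 was -0.24 with averaged probes. With array weights Klhl40 was -0.015 and Klhl12 0.023, and with the gene-by-gene weights Klhl38 was 0.11. Leaving out each array in turn gave ranges across 0 of -0.18 to 0.27 for Klhl40, -0.10 to 0.34 for Klhl30, -0.49 to 0.18 for Klhl34, -0.52 to 0.30 for Klhl38, -0.11 to 0.50 for Kbtbd11, -0.030 to 0.32 for Klhl23, -0.86 to 0.078 for Klhl29 and -0.11 to 0.047 for Klhl12. The cause of these changes was not tested.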
